A study of Mus musculus with 8 samples.

Results

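The 10 glucocorticoid-induced transcripts Tsc22d3, Zbtb16, Cebpb, Cebpd, Plin4, Angptl4, Map3k6, Arl4d, Mertk and Fam107a were followed in the mouse hypothalamus after a short exposure to low oxygen. They were picked by gene symbol, as known glucocorticoid-induced genes outside the Sgk, Klf, Dusp, metallothionein and clock families. All 10 of the 10 genes were found among the 55487 Ensembl genes of the count table, and all 10 passed the filter on low counts. The hypothalami came from C57BL/6J mice that either spent 2 hours in a chamber at 7% oxygen (hypoxia, 4 libraries) or stayed at 21% oxygen (normoxia, 4 libraries). The series asks how hypoxia changes the function of the glucocorticoid receptor. The mice carried no genetic change or hormone treatment in the labels, and their age is not given in the sources used here. The submitters describe the 4 libraries of each group as biological replicates, so every p-value here reflects how these 8 libraries vary.

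Glucocorticoids are steroid hormones of the adrenal gland, released at the end of the stress axis that the hypothalamus starts. They bind the glucocorticoid receptor, which moves to the nucleus, binds palindromic DNA elements and switches on a set of genes within hours. Many of these genes limit inflammation, alter fuel use or feed back on the receptor, and in the brain they respond in neurons, glia and blood vessels. Several of them also respond to other signals, including low oxygen, cyclic AMP and fatty acids. Libraries of RNA alone do not record the hormone or the receptor's activity.

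Each library held 16994473 to 21694383 counts. Normoxia replicates 1 and 2 and hypoxia replicate 4 stood apart from the rest of their groups in markers of neighbouring tissue, and the fits without each of them are given below. Levels below are CPM, a gene's counts relative to the total of its library after TMM scaling. In normoxia replicate 2 the summed level of the 9 cortex and hippocampus markers that passed the filter, of 10 listed, was 711 CPM. It was 155 to 229 CPM in the remaining normoxia libraries and 168 to 232 CPM in hypoxia. Slc17a7, a glutamate transporter of cortical neurons, was at 384 CPM in normoxia replicate 2 and at 7.92 to 80.3 CPM in the remaining 7 libraries. Summed pituitary markers were at 80.0 CPM in the same library and at 41.8 CPM in hypoxia replicate 4, against 0.145 to 9.12 CPM elsewhere. Only 3 of the 7 listed passed the filter and entered these sums, and 1 of the 7 was at 0. Most of the 2 high sums came from the hormone genes Prl and Gh. They were at 40.4 and 38.9 CPM in normoxia replicate 2 and at 28.6 and 11.7 CPM in hypoxia replicate 4. Summed thalamus markers were at 676 CPM in normoxia replicate 1, at 300 to 352 CPM in the remaining normoxia libraries and at 282 to 412 CPM in hypoxia. All 9 of them had negative log2 fold changes (median −0.39, 0 called). The 9 striatum markers had positive ones (median 0.40, 0 called), and normoxia replicate 2 was the highest normoxia library in 8 of these 9, as it was in 8 of the 10 transcripts. Their sums were 801, 866, 1220 and 1280 CPM in hypoxia and 472, 1210, 502 and 1000 CPM in normoxia. The 10 hypothalamic identity markers were all detected. They summed to 719 to 853 CPM in hypoxia and 403 to 872 CPM in normoxia, the 403 being normoxia replicate 2. Astrocyte markers summed to 4360 to 4520 CPM in hypoxia and 4200 to 4550 in normoxia, microglial markers to 345 to 389 and 328 to 400, and endothelial markers to 468 to 569 and 444 to 516. In these 3 lists the sums of the groups overlapped and all 10 markers of each were detected. Single markers were called by edgeR: the astrocyte connexin Gjb6 (log2 0.34) and the endothelial glucose transporter Slc2a1 (0.70) higher, and the endothelial transporter Slco1a4 (−0.48) lower. Of the cortex list Neurod1, a transcription factor of neurons, was lower (−1.46), and of the mural cell list the channel subunit Kcnj8 was higher (0.98). The part of tissue composition in the levels of the 10 transcripts was not tested. In bulk tissue, fewer cells of a type and less RNA per cell cannot be told apart.

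Plin4 was higher in hypoxia and passed the test, and the other 9 transcripts had positive log2 fold changes without passing it. The test was edgeR's quasi-likelihood test over 17047 genes, with a gene called at a Benjamini-Hochberg adjusted p under 0.05. It called 1 of the 10 transcripts higher and 0 lower, where 0.915% of all genes were called higher and 2.15% in either direction. The whole table gave 156 higher and 210 lower genes, or 146 and 342 with scaling by library size only. The median log2 fold change of the 10 was 0.75, against −0.01 over all genes, and all 10 were above 0, as were 48.2% of all genes. An unadjusted p under 0.05 was reached by 7 of the 10, and by 7.63% of all genes in the same direction. In 6 of the 10 every hypoxia library lay above every normoxia library, as it did in 5.69% of all genes. The 10 transcripts share the same libraries, so they are not 10 separate observations.

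**Figure D1:**
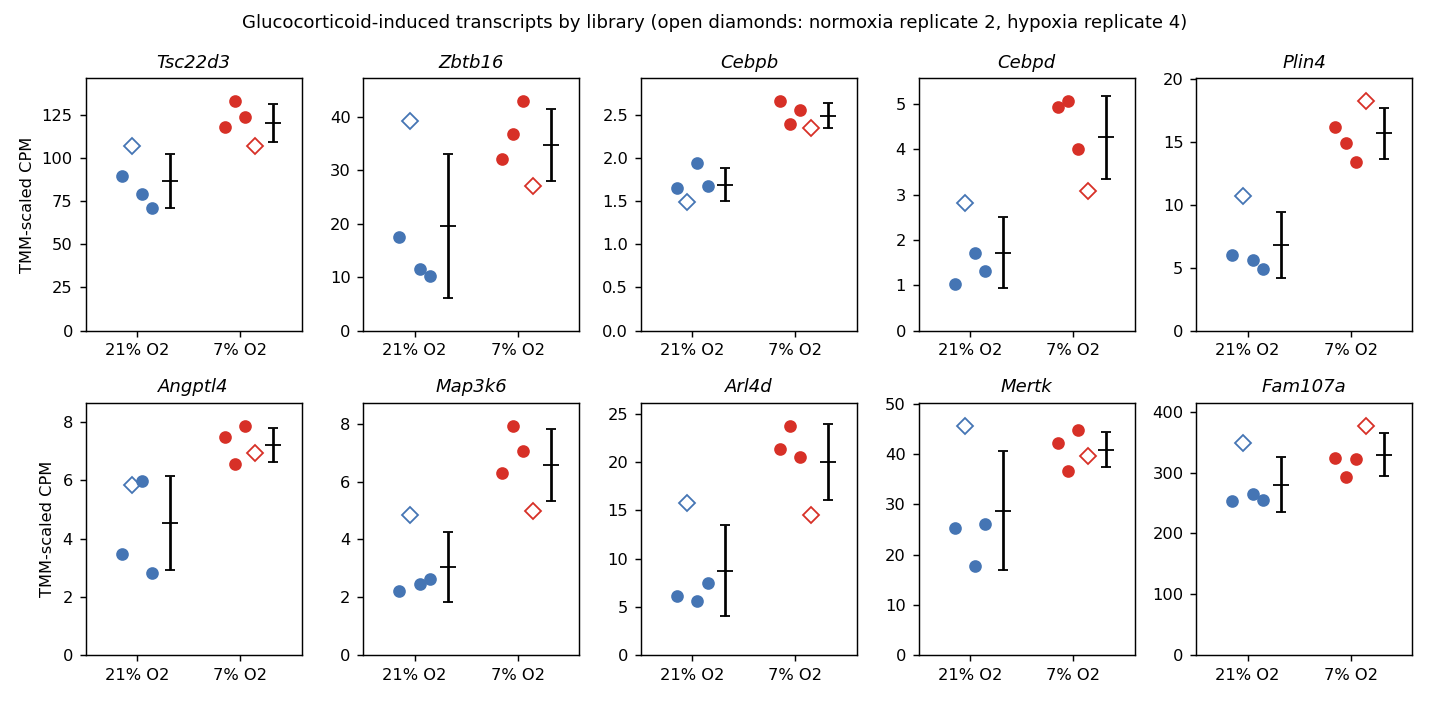
TMM-scaled CPM (y axis) of each transcript in the 4 libraries at 21% oxygen (blue) and the 4 at 7% oxygen (red), with the mean and SD in black. The open diamond among the blue points, normoxia replicate 2, is the highest normoxia library in 8 of the 10 panels, and the open red diamond is hypoxia replicate 4.

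The number of these transcripts that were called rested on normoxia replicate 2. That library was the highest of the 4 normoxia libraries in 8 of the 10, and in 35.2% of all genes. Without it, edgeR called 8 of the 10 higher, where 1.91% of all genes were called higher. Without hypoxia replicate 4 it called 3, Plin4, Cebpd and Map3k6, where 1.37% of all genes were called higher. Leaving out hypoxia replicate 1, 2 or 3 gave 0 of the 10, with 0.139%, 0.185% and 0.162% of all genes called higher. Leaving out normoxia replicate 1, 3 or 4 also gave 0, with 0.244%, 0.179% and 0.157%. With normoxia replicate 2 and hypoxia replicate 4 both left out, 8 were called, where 2.66% of all genes were. Every one of the 10 had a positive fold change in each of these fits. Where normoxia replicate 2 was the highest of its group, leaving it out raises the fold change in itself. The same holds for hypoxia replicate 4 where it was the lowest of its group. Calls gained in this way, here and below, are a description and add no support.

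The first group holds regulators of transcription. Tsc22d3 encodes the glucocorticoid-induced leucine zipper, which binds and restrains NF-kB and AP-1 and carries part of the anti-inflammatory action of the hormone. It lies on chromosome X (140539528 to 140600659, minus strand, mm10). Its level in hypoxia was 118, 133, 124 and 107 CPM, and in normoxia it was 89.8, 107, 79.3 and 71.2 CPM. The groups did not overlap, but hypoxia replicate 4 and normoxia replicate 2 both rounded to 107 CPM. The mean was 120.5 ± 10.8 CPM in hypoxia and 86.8 ± 15.5 CPM in normoxia (SD, n = 4 each). The log2 fold change was 0.47 ± 0.12 (SE), with an adjusted p of 0.0768 by edgeR. Without normoxia replicate 2 it was 0.59 and the adjusted p was 0.0102.

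Zbtb16 encodes PLZF, a zinc finger repressor of transcription that steroid hormones induce in many tissues (chromosome 9, 48654297 to 48836222, minus strand). In hypoxia it was at 32.2, 36.7, 42.9 and 27.1 CPM, and in normoxia at 17.5, 39.2, 11.5 and 10.2 CPM. The groups overlapped through normoxia replicate 2 alone, which lay above 3 of the 4 hypoxia libraries. Zbtb16 had a log2 fold change of 0.83 ± 0.38 (SE; edgeR, adjusted p = 0.272). It became 1.41 without normoxia replicate 2 (adjusted p = 0.00824), and no other member had a larger spread in normoxia relative to its mean (68.5%).

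Cebpb and Cebpd encode C/EBP transcription factors, leucine zipper proteins of inflammation and of fat cell formation that glucocorticoids and cytokines induce. Cebpd (chromosome 16, 15887286 to 15891031, plus strand) was at 4.93, 5.06, 4.01 and 3.09 CPM in hypoxia and at 1.03, 2.82, 1.72 and 1.32 CPM in normoxia. The groups did not overlap, with hypoxia replicate 4 the lowest of its group and normoxia replicate 2 the highest of the other. The log2 fold change of Cebpd, 1.32 ± 0.30 (SE), was the largest of the 10 transcripts, and its adjusted p was 0.0556 by edgeR. Without normoxia replicate 2 it was 1.67 (0.00933), and without hypoxia replicate 4 it was 1.45 (0.043). These levels rest on 22 to 102 reads per library.

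Cebpb (chromosome 2, 167688915 to 167690418, plus strand) was at 2.66, 2.40, 2.56 and 2.35 CPM in hypoxia and at 1.65, 1.49, 1.95 and 1.68 CPM in normoxia. It was 1 of the 2 transcripts, with Angptl4, in which normoxia replicate 2 was not the highest normoxia library, and here that library was the lowest. Its log2 fold change was 0.56 ± 0.15 (SE; edgeR, adjusted p = 0.0816), from 28 to 55 reads per library. It was not called without any 1 library, with values from 0.51 to 0.64. Of the 1504 exon bases of Cebpb, 312 overlap exons of Tmem189 on the opposite strand, and 562 of the 3746 of Cebpd overlap exons of Spidr. Whether the counting used strand is not given in the sources used here, so both levels are uncertain there. Tmem189 and Spidr had log2 fold changes of −0.14 and −0.23 (edgeR, adjusted p = 0.455 and 0.394). The part of their reads in the levels of Cebpb and Cebpd was not tested.

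The second group acts on lipids. Plin4 encodes perilipin 4, a coat protein of lipid droplets, on chromosome 17 (56100591 to 56109803, minus strand). In hypoxia it was at 16.2, 14.9, 13.4 and 18.2 CPM, and in normoxia at 5.97, 10.7, 5.63 and 4.86 CPM. The groups did not overlap, and hypoxia replicate 4 was the highest of the 8 libraries here. The mean of Plin4 was 15.7 ± 2.03 CPM in hypoxia and 6.79 ± 2.64 CPM in normoxia (SD, n = 4 each), 2.32-fold apart. It rose by 1.21 ± 0.23 on the log2 scale (SE), with an adjusted p of 0.0364 by edgeR. The call held without normoxia replicate 2 (log2 1.52, 0.000856) and without hypoxia replicate 4 (1.14, 0.0472). It was lost when any of the remaining 6 libraries was left out, with log2 fold changes of 1.09 to 1.28 and adjusted p of 0.0826 to 0.129. It is shown here as the transcript that passed the test, by the 250 bases before its annotated start (chr17:56109783-56110032, GRCm38.p6, minus strand, written 5′ to 3′, from RefSeq), in which none of the motifs searched for was found:
Plin4: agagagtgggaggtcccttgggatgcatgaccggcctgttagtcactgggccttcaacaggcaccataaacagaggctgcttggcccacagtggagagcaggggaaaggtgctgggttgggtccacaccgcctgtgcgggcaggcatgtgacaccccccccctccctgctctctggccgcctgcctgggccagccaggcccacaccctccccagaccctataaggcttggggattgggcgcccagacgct

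Angptl4 encodes a secreted inhibitor of lipoprotein lipase that fasting, glucocorticoids, fatty acid receptors and HIF induce (chromosome 17, 33773750 to 33781830, minus strand). It was at 7.5, 6.56, 7.88 and 6.94 CPM in hypoxia and at 3.48, 5.85, 5.97 and 2.82 CPM in normoxia. The groups did not overlap, and the normoxia libraries fell into a lower and a higher pair. Angptl4 had a log2 fold change of 0.68 ± 0.23 (SE; edgeR, adjusted p = 0.152). It was not called without any 1 library, with an adjusted p of 0.0647 without normoxia replicate 2.

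The third group holds signalling, phagocytic and cytoskeletal proteins. Map3k6 encodes ASK2, a stress-activated kinase that signals to p38 and JNK (chromosome 4, 133240818 to 133252929, plus strand). It was at 6.29, 7.94, 7.05 and 4.99 CPM in hypoxia and at 2.21, 4.84, 2.47 and 2.63 CPM in normoxia. The groups were separated by the narrow gap between hypoxia replicate 4 and normoxia replicate 2. The log2 fold change was 1.11 ± 0.26 (SE; edgeR, adjusted p = 0.0595). Without hypoxia replicate 4 it was 1.23 (0.0446) and without normoxia replicate 2 it was 1.43 (0.00514). The 250 bases before its start (chr4:133240568-133240817, GRCm38.p6, plus strand) show, in capitals, the core of the glucocorticoid response element (ACANNNTGT) and, nearer the 5′ end, the hypoxia response element core ACGTG read from the other strand:
Map3k6: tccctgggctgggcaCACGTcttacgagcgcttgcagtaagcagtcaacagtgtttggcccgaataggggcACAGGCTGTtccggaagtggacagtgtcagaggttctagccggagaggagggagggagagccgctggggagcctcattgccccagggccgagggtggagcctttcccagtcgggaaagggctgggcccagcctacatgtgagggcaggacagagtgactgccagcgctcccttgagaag

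Arl4d encodes a small GTPase of the ARF family at the plasma membrane, which acts on membrane traffic and actin (chromosome 11, 101665541 to 101667832, plus strand). In hypoxia it was at 21.4, 23.8, 20.5 and 14.5 CPM, and in normoxia at 6.16, 15.8, 5.57 and 7.49 CPM. The overlap came from hypoxia replicate 4 lying below normoxia replicate 2. Arl4d had a log2 fold change of 1.20 ± 0.31 (SE; edgeR, adjusted p = 0.0816), and without normoxia replicate 2 it was 1.64 (0.00284). Its upstream bases (chr11:101665291-101665540, GRCm38.p6, plus strand) are shown for a pair of overlapping core sites of the cyclic AMP response element (TGACG) close to the start. They are in capitals, as are a further core site and a hypoxia response element core (GCGTG), both on the other strand, near the 5′ end:
Arl4d: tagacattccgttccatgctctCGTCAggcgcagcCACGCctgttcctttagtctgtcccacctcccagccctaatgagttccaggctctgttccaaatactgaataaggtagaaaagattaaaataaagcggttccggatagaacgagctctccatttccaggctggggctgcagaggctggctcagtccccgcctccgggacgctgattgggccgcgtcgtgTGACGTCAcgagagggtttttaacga

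Mertk encodes a receptor tyrosine kinase with which astrocytes and microglia engulf dying cells and synapses (chromosome 2, 128698956 to 128802894, plus strand). It was at 42.3, 36.7, 44.9 and 39.7 CPM in hypoxia and at 25.3, 45.7, 17.8 and 26.2 CPM in normoxia. Normoxia replicate 2 was the highest of all 8 libraries, while the other 3 normoxia libraries lay below every hypoxia library. Mertk had a log2 fold change of 0.51 ± 0.24 (SE; edgeR, adjusted p = 0.274), and without normoxia replicate 2 it was 0.82 (0.0111).

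Fam107a encodes an actin-binding protein of neurons and astrocytes that stress and glucocorticoids induce in the brain (chromosome 14, 8296274 to 8318023, minus strand). It was at 324, 293, 323 and 377 CPM in hypoxia and at 253, 348, 265 and 255 CPM in normoxia. Normoxia replicate 2 lay above 3 of the 4 hypoxia libraries, and hypoxia replicate 4 was the highest of the 8. The log2 fold change, 0.23 ± 0.11 (SE; edgeR, adjusted p = 0.297), was the smallest of the 10. It was 0.36 without normoxia replicate 2 (0.0305) and 0.16 without hypoxia replicate 4 (0.487). At its internal start, the upstream bases (chr14:8309778-8310027, GRCm38.p6, minus strand) hold in capitals a match to the full glucocorticoid response element (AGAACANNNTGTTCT) with 2 mismatches, at positions −121 to −107:
Fam107a: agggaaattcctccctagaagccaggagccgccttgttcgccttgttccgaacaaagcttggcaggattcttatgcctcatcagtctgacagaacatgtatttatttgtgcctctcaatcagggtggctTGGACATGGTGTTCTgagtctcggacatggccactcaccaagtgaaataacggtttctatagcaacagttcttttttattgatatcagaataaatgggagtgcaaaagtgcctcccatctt

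**Figure D2:**
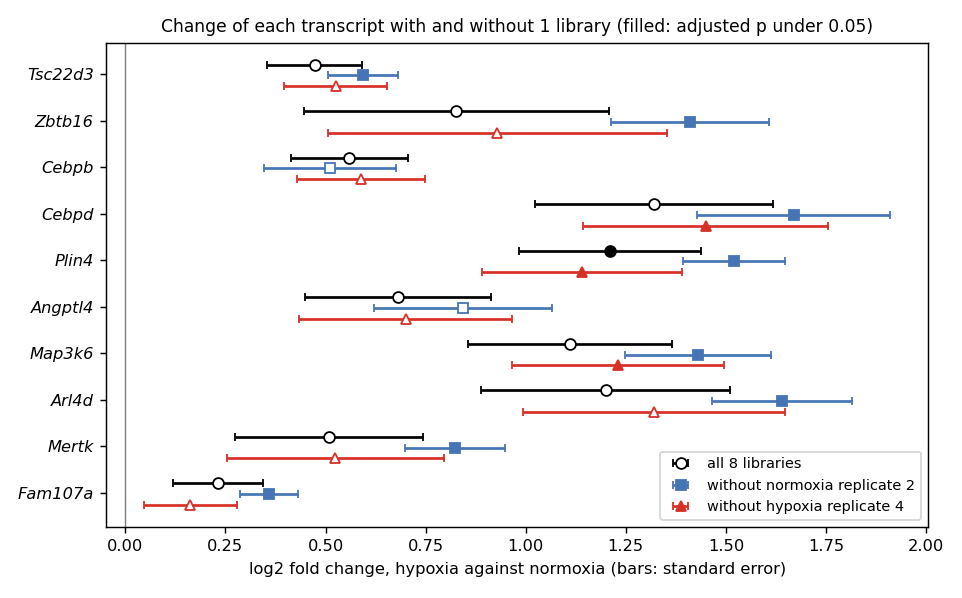
Log2 fold change of each transcript, hypoxia against normoxia (x axis, with standard errors), with all 8 libraries (black), without normoxia replicate 2 (blue) and without hypoxia replicate 4 (red); filled symbols have an adjusted p under 0.05. With all libraries only Plin4 is filled, and without normoxia replicate 2 all but Cebpb and Angptl4 are.

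By an exact permutation test of log2 CPM (two-sided), the 6 transcripts without overlap had p = 0.0286, the smallest that 4 against 4 can give. The exact permutation p was 0.0571 for Arl4d, 0.114 for Zbtb16, 0.114 for Fam107a and 0.143 for Mertk. These are not adjusted for the number of transcripts. With DESeq2 in place of edgeR, 5 of the 10 were called higher (Tsc22d3, Plin4, Cebpd, Map3k6 and Arl4d), where 2.25% of all genes were. With limma-voom 4 were called (Plin4, Cebpd, Map3k6 and Arl4d), where 0.974% of all genes were. The count was 1 with library size, RLE or upper quartile scaling, where 0.856%, 0.933% and 0.921% of all genes were called higher, and with a filter of at least 1 CPM in 4 libraries (0.993%). It was 3 with no filter (0.472%), 2 with robust estimation (0.991%) and 2 with the newer form of the quasi-likelihood test (0.974%). At an adjusted p under 0.1 it was 6 (2.25%).

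The spread between libraries differed between the groups. In hypoxia the SD was 5.81% to 21.4% of the mean over the 10 transcripts, and in normoxia it was 11.4% to 68.5%. On the log2 scale, normoxia replicate 2 lay 63.8% (Plin4) to 80.5% (Arl4d) of the way from the mean of the other 3 normoxia libraries to the hypoxia mean in Plin4, Cebpd, Angptl4, Map3k6, Tsc22d3 and Arl4d. It lay beyond the hypoxia mean in Zbtb16 (114%), Mertk (119%) and Fam107a (125%). In Cebpb it lay on the opposite side (−46.4%). Hypoxia replicate 4 was the lowest hypoxia library in 6 of the 10, Tsc22d3, Zbtb16, Cebpb, Cebpd, Map3k6 and Arl4d, and in 27.5% of all genes.

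Levels were compared between genes as RPKM, the CPM per kilobase of merged exon. In normoxia Fam107a stood at 72.5 RPKM, Tsc22d3 at 20, Mertk at 6.63, Arl4d at 6.34 and Zbtb16 at 3.71 RPKM. Angptl4 (1.28), Plin4 (1.17), Cebpb (1.12), Map3k6 (0.66) and Cebpd (0.46) followed. In hypoxia Fam107a (85.1 RPKM) and Tsc22d3 (27.8) were again the most abundant, and Arl4d (14.5) stood above Mertk (9.43). The library ranges of Fam107a (65.5 to 97.4 RPKM) and of Tsc22d3 (16.4 to 30.6) overlapped neither each other nor those of the rest except Arl4d, which reached 17.2. Those of Mertk (4.11 to 10.5), Arl4d (4.03 to 17.2) and Zbtb16 (1.93 to 8.11) overlapped one another. So did those of Angptl4 (0.795 to 2.22), Plin4 (0.841 to 3.15), Cebpb (0.99 to 1.77), Map3k6 (0.48 to 1.72) and Cebpd (0.276 to 1.35). These ranges take the hypoxia and normoxia libraries together, so they do not settle the order of genes within a group. That order was not tested.

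In each of 8 gene families the tested relatives had smaller log2 fold changes than the transcripts of that same family described here, or negative ones. Over all genes 0.915% were called higher and 2.15% in either direction, so 0 called says little in families this small. The difference between a transcript and its relatives was not tested. Of 3 other TSC22 domain genes, 0 were called higher and 1 lower, Tsc22d2. Its mean was 46.5 ± 0.655 CPM in normoxia and 38.8 ± 2.15 CPM in hypoxia (SD, n = 4 each), and it fell by 0.26 ± 0.05 on the log2 scale (SE; edgeR, adjusted p = 0.0441). That call held in 2 of the 8 fits that left out 1 library, those without normoxia replicate 2 or hypoxia replicate 4. With all 8 libraries it was lost under upper quartile scaling (adjusted p = 0.0576) and with no low-count filter (0.0772). Of 4 other C/EBP family genes tested, 0 were called, with log2 fold changes from −0.55 to 0.05. The lowest was Cebpg, a C/EBP without an activation domain of its own (adjusted p = 0.0541). Cebpg was called lower in 2 of the 8 fits that left out 1 library. These were the fits without hypoxia replicate 4 (−0.69, edgeR, adjusted p = 0.00446) and without normoxia replicate 2 (0.0432). It was also called lower in 6 of 11 other fits, among them DESeq2 (0.00239), limma-voom (0.0425) and scaling by library size only (edgeR, 0.0455). Of 3 other perilipins 0 were called, and the log2 fold change of Plin5, a perilipin of oxidative tissue, was 0.71 ± 0.32 (SE; adjusted p = 0.262). Of 4 other angiopoietin-like genes 0 were called (−0.13 to 0.06), and Angptl2 had −0.13. Of 4 other TAM receptors and ligands 0 were called (−0.11 to 0.11), and Gas6, a ligand of Mertk, had 0.11. Of the ASK kinases Map3k5 had 0.10 and of the ARL4 GTPases Arl4a had 0.18, with 0 of 2 called in each family. Without normoxia replicate 2 Arl4a had 0.35 and was called (edgeR, adjusted p = 0.0324), beside 1.64 for Arl4d. Fam107b had −0.01 and turned positive in 6 of the alternative fits.

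Each list of genes sharing the lipid roles of Plin4 and Angptl4 held 1 called gene, where 0.915% of all genes were called higher. Of 15 tested targets of the PPAR fatty acid receptors 1 was higher and 0 lower, with a median log2 fold change of 0.04. That gene was Ucp2, a mitochondrial carrier, at 61.2 ± 10.6 CPM in normoxia and 96.0 ± 6.61 CPM in hypoxia (SD, n = 4 each). It rose by 0.65 on the log2 scale (edgeR, adjusted p = 0.0291). Of 6 tested genes of lipoprotein lipase and fat breakdown 1 was higher and 0 lower, with a median of 0.13. It was Pnpla2, the adipose triglyceride lipase, at 25.1 ± 0.489 CPM in normoxia and 34.9 ± 2.13 CPM in hypoxia. It rose by 0.48 ± 0.06 on the log2 scale (SE; edgeR, adjusted p = 0.0104). With 1 library left out, Ucp2 was called in 3 of 8 fits and Pnpla2 in 6 of 8.

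Among 29 tested glucocorticoid-responsive genes outside the 10, 14 were called higher and 0 lower, where 0.915% of all genes were called higher. Of the 29, 27 had a positive fold change, as did 48.2% of all genes, and the median log2 fold change was 0.61. In 16 of the 29 the groups did not overlap, with hypoxia higher, as in 5.69% of all genes. Normoxia replicate 2 was the highest normoxia library in 19 of the 29, and in 35.2% of all genes. Hypoxia replicate 4 was the lowest hypoxia library in 23 of the 29, and in 27.5% of all genes. This list was drawn up from general knowledge with earlier results of these data known. The 6 with the smallest p were the metallothioneins Mt2 (log2 0.90) and Mt1 (0.52), the arrestin-domain genes Arrdc2 (1.46) and Arrdc3 (0.84), the heparan sulfate proteoglycan Sdc4 (0.34) and the focal adhesion scaffold Nedd9 (0.81). Their adjusted p by edgeR ran from 0.000995 (Mt2) to 0.0156 (Nedd9). In these 6 genes every normoxia library, replicate 2 included, lay below every hypoxia library. Arrdc3, for example, was at 69.3 CPM there, between 62.1 and 71.0 CPM in the other normoxia libraries and under 95.7 to 142 CPM in hypoxia. The 6 were picked by p in these same libraries, so their separated groups follow in part from the choice. Mt2, Mt1 and Arrdc2 were called in all 8 fits that left out 1 library, Arrdc3 in 5, and Sdc4 and Nedd9 in 3. The number of the 29 called was 22 without normoxia replicate 2, 16 without hypoxia replicate 4, and between 3 and 6 when any remaining library was left out.

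The genes most like the 10 transcripts were ranked by Pearson's r with the mean of their z-scored log2 CPM, over the 8 libraries and among 13761 other genes. The 8 highest, with r from 0.9705 to 0.9902, were Cdkn1a, Afdn, Per1, H3f3b, Pfkl, Sgk1, Kbtbd11 and Fkbp5. Cdkn1a (a cell cycle inhibitor), Per1 (a clock repressor), Sgk1 (a kinase of ion transport) and Fkbp5 (a co-chaperone of the receptor) belong to the list of 29. Cdkn1a was at 40.7 to 68.6 CPM in hypoxia, at 44.3 CPM in normoxia replicate 2 and at 11.3 to 12.6 CPM in normoxia replicates 1, 3 and 4. Fkbp5 was at 49.7 to 60.8 CPM, 53.3 CPM and 29.0 to 31.0 CPM in the same order. Afdn (a cell junction scaffold), H3f3b (a histone H3.3 gene), Pfkl (a phosphofructokinase) and Kbtbd11 had smaller log2 fold changes, 0.16, 0.46, 0.18 and 0.42. Of the 8, edgeR called H3f3b, Sgk1 and Kbtbd11 over all genes, and each of these calls held in 2 of the 8 fits that left out 1 library, those without normoxia replicate 2 or hypoxia replicate 4. That of Sgk1 was lost with robust estimation (adjusted p = 0.0591). Without normoxia replicate 2 all 8 were called, with Cdkn1a at a log2 fold change of 2.23 in place of 1.48. These r values share the contrast between the groups and the place of normoxia replicate 2, and are given as a description. The 8 genes were picked for that pattern, so their calls without that library follow largely from the choice and add no support.

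**Figure D3:**
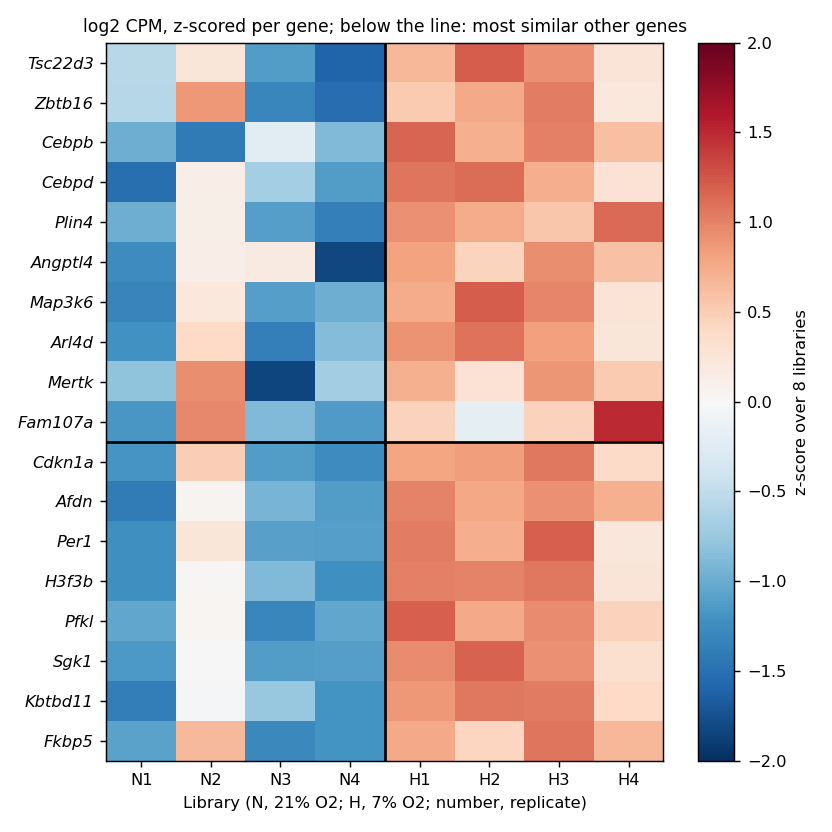
Z-scored log2 CPM of the 10 transcripts (above the black line) and of the 8 genes most like them (below) in normoxia (N1 to N4) and hypoxia (H1 to H4) libraries; red is above and blue below the mean of a gene over the 8 libraries. The averaged z-score of the 10 is 0.257 in N2, against −1.20 to −0.942 in N1, N3 and N4 and 0.561 to 0.827 in hypoxia.

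Promoter windows, from 250 bases before to 50 after an annotated start, were at hand for 7 of the 10 genes, in 11 windows. Both strands were searched. The glucocorticoid response element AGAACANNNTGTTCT with up to 2 mismatches was found in 1.84% of 32851 windows and, of the 10 genes, at the same site of 2 overlapping windows of Fam107a. Its core ACANNNTGT, which lies inside it, was in 6.85% of all windows and in 3 of the 11, of Fam107a and Map3k6. The hypoxia response element cores ACGTG and GCGTG were in 19.6% and 32.4% of all windows and in 2 and 6 of the 11. The cyclic AMP response element core TGACG was in 20.8% of all windows and in 4 of the 11, of Tsc22d3, Fam107a, Cebpb and Arl4d. A match describes the letters and does not show that a factor binds there, and sites farther from the starts were not searched.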

How the data were processed

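Polyadenylated RNA of 8 mouse hypothalami was sequenced after stranded library preparation, as the labels' protocols state. The authors deposited unnormalized counts of reads for every Ensembl gene. Per the submitters' processing notes, reads were handled with Trimmomatic, HISAT2 2.0.4 (HISAT), SAMtools and featureCounts against mm10, and DESeq2 was used. Which annotation release and strand setting served the counting, and how reads with several matches were treated, is not given in the sources used here. Library totals ran from 16994473 to 21694383 counts. Gene symbols, positions and merged exon lengths come from GENCODE M21 (GRCm38), and promoter windows from RefSeq (GRCm38.p6).

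The test was run in edgeR 4.0.16 under R 4.3.3, with filterByExpr (minimum count 10, minimum total 15), TMM scaling and the quasi-likelihood F test with group as the only term, adjusted by Benjamini-Hochberg over all 17047 genes tested. In log2 CPM the prior count was 2. Alternatives were DESeq2 1.42.0, limma-voom (limma 3.58.1), other scalings and filters, a replicate block, and libraries left out. On simulated data with 16987 genes, 37% of genes shifted by 0.5 (log2) and 80% of those shifted by 1 were called. Of the calls, 4.88% fell on unchanged genes. Each gene was simulated independently, without shifts shared by many genes of a library, so these rates may not hold for the real libraries. The 12 pairs of libraries within a group differed by 4.62 or more in chi-square per gene, so each counted as 1 sample.

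The 10 transcripts and the gene lists were chosen with earlier results of these data known. Besides the 10, the genes named are the 6 with the smallest p of the other glucocorticoid-responsive genes, the called members of each family or pathway list or else the one with the smallest p, and the 8 most like the mean pattern of the 10. Of the marker lists summed levels and Slc17a7, Prl and Gh are given. Gjb6, Slc2a1, Slco1a4, Neurod1 and Kcnj8 were named after their values were seen, as the called markers. Tmem189 and Spidr were named after their values were seen, for their overlap. Marker lists whose sums are not in the text above were oligodendrocytes, mural cells, neurons, choroid plexus and red blood cells. In these lists the ranges of the summed levels overlapped between the groups.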

Additional observations from a re-analysis of the deposited data

Results flagged for a closer look

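A library lay far from the other 3 of its group, by Dixon's ratio at the 95% level, in 19 of 100 groups of 4 examined, where chance gives about 1 in 20 independent groups. These groups are not independent: they share the 8 libraries, sums stand beside their own members, and 8 of the genes were chosen for a pattern in which normoxia replicate 2 is raised. Normoxia replicate 2 was the distant library in 12 of the 19. Among the 10 transcripts it was so in Fam107a (348 CPM against 253 to 265) and Map3k6 (4.84 against 2.21 to 2.63). Among the other named genes it was so in Cdkn1a (44.3 against 11.3 to 12.6), Per1 (93.7 against 59.9 to 62.4), Sgk1 (94.5 against 37.3 to 38.6) and Fkbp5 (53.3 against 29.0 to 31.0). It was low in Nedd9, at 14.4 CPM. Of the tissue markers it was high in Slc17a7 (384), Prl (40.4), Gh (38.9), and the summed cortex and hippocampus (711) and pituitary (80.0 CPM) lists.

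Hypoxia replicate 4 was low in H3f3b (219 CPM against 253 to 256) and Ucp2 (86.1 against 98.6 to 100), and high in Prl (28.6) and Gh (11.7 CPM). Normoxia replicate 1 was low in Mt2 (67.2 against 70.8 to 71.5 CPM) and high in the summed thalamus markers (676 against 300 to 352). Hypoxia replicate 2 was high in the summed oligodendrocyte markers (10500 against 7180 to 7470 CPM).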

How the results depend on the processing

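All 190 fold changes of the 10 transcripts computed under alternatives with another fit or other libraries were positive. The number of the 10 called changed more: 5 with DESeq2, 4 with limma-voom, 3 with no low-count filter, 2 with robust estimation, 2 with the newer quasi-likelihood form and 6 at an adjusted p under 0.1, against 1. It was 1 under each of the other scalings and the stricter filter. Over all genes the number called was 1017 with DESeq2 and 1058 at an adjusted p under 0.1, against 366. Without normoxia replicate 2 and hypoxia replicate 4 together it was 1195, with 8 of the 10 transcripts and 22 of the 29 other glucocorticoid-responsive genes. Leaving out 1 library gave 26 to 693 genes, 0 to 8 of the 10 and 3 to 22 of the 29. With the replicate number as a block, 21 genes, 0 of the 10 and 6 of the 29 were called. The numbers share no stated source, and deviations of same-numbered libraries had correlations of −0.105 to 0.043, so they do not pair the libraries. Fam107b turned positive with limma-voom (0.0122), upper quartile scaling (0.00383), the replicate block (0.00282), and without hypoxia replicate 1, normoxia replicate 1 or normoxia replicate 3, with a leave-one-out range of −0.0618 to 0.106. Angptl2 did without normoxia replicate 4, with a range of −0.258 to 0.126. The cause was not tested. Depth is low for Cebpb (28 to 55 reads per library) and Cebpd (22 to 102). The Tsc22d2 call was lost under the replicate block (edgeR, adjusted p = 0.155), as were those of H3f3b (0.0889) and Kbtbd11 (0.0854). So were those of Plin4 (0.111), Ucp2 (0.104), Pnpla2 (0.0792), Sdc4 (0.0975) and Nedd9 (0.0763). The calls of Mt2 (0.0208), Mt1 (0.0446), Arrdc2 (0.0446), Arrdc3 (0.0452) and Sgk1 (0.0446) held under it.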
